A study of Mus musculus with 8 samples.

Results

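The 10 genes described here mark leukocytes and the presentation of antigen in the liver. They were taken as the rows of the deposited expression table that carry the symbols Ptprc, Lyz2, Ccl2, Ccr2, Itgax, Trem2, Cd74, H2-Aa, H2-Ab1 and H2-Eb1, and all 10 were found among 38283 genes. Livers were profiled by poly(A) RNA sequencing in 8 libraries, 2 in each of 4 groups. In RORα f/f mice exons 4 to 5 of Rora are flanked by loxP on both alleles and there is no Cre, and RORα LKO mice carry the same floxed alleles together with a Cre driven by the albumin promoter, which acts in hepatocytes and not in leukocytes. Both were male C57BL/6 mice given either a control diet (CD) or a high-fat diet (HFD), with 60% of calories from fat, from 8 weeks of age for 10 weeks. Each library pooled the RNA of 2 livers, so a group holds 4 mice but only 2 values, and p-values measure the spread between such pools.

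Leukocytes of the liver include resident macrophages, the Kupffer cells, and cells that arrive from the blood. Monocytes leave the bone marrow and enter inflamed tissue along the chemokine Ccl2 through its receptor Ccr2, and macrophages that take up lipid in a fatty liver are known to make Trem2 and Itgax (the integrin CD11c). Professional antigen-presenting cells, such as dendritic cells, B cells and macrophages, load peptides onto class II molecules made of an α and a β chain. H2-Aa encodes the α chain and H2-Ab1 the β chain of I-A, and H2-Eb1 encodes the β chain of I-E, whose α chain is not made in C57BL/6 mice. Cd74 encodes the invariant chain, which occupies the peptide groove until the molecule reaches the endosome. Ptprc (CD45) lies on nearly all blood cells with a nucleus, and Lyz2 is the lysozyme of macrophages and granulocytes.

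The 3 class II chain genes are neighbours on mouse chromosome 17 and lie within 59.0 kb (GRCm38, GENCODE annotation). H2-Ab1 spans chr17:34257689-34269419 on the plus strand, H2-Aa spans chr17:34282744-34287823 on the minus strand and H2-Eb1 spans chr17:34305867-34316674 on the plus strand. Trem2 lies on the same chromosome at chr17:48346401-48354147. Class II genes are known to be switched on by the coactivator CIITA, which binds to factors on an upstream module with an X box and a Y box. The windows of RefSeq for GRCm38.p6, from 250 bases before to 50 after each start site, cover 7 of the 10 genes. Cd74, H2-Ab1 and Ccl2 had no window. The 150 bases before the start site are shown for the class II genes that had one, H2-Aa (chr17:34287824-34287973, minus strand) and H2-Eb1 (chr17:34305717-34305866, plus strand). Capitals mark CTGATTGG, the letters of the Y box, and CTNGCAAC, letters within the X box that were picked after these sequences were seen.
H2-Aa: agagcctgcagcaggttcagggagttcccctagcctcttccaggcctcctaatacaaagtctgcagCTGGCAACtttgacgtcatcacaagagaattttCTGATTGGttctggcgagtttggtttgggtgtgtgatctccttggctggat
H2-Eb1: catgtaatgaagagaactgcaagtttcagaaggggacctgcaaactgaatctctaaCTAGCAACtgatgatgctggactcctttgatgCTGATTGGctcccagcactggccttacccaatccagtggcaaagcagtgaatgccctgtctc
CTGATTGG, read on both strands, was present in 4.10% of all 32851 windows and CTNGCAAC in 3.42%, and 59 windows held both. Neither string was found in the windows of Ptprc, Lyz2, Ccr2, Itgax or Trem2. AGGTCA, the core letters of sites that RORα binds, occurred in the windows of H2-Eb1 and Trem2 and in 16.3% of all windows, so its presence is common.

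The table gives FPKM, in which fragments are scaled by transcript length and by library size, which allows levels to be compared between genes. Cd74 was the most abundant of the 10 genes in 6 of 8 libraries and Lyz2 in the other two. H2-Aa came next to H2-Ab1, and H2-Aa was the higher of the pair in 5 of 8 libraries, with a ratio of H2-Aa to H2-Ab1 between 0.884 and 1.27, so their order was not settled. H2-Eb1 was below both in 8 of 8 libraries. The level of Cd74 was between 2.30 and 2.74 times that of H2-Aa in every library. Ptprc stood near 1 FPKM, and Ccr2, Ccl2, Trem2 and Itgax did not exceed 1 FPKM in any library. An FPKM table carries no read counts, so the depth behind these low values is unknown.

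**Figure D1:**
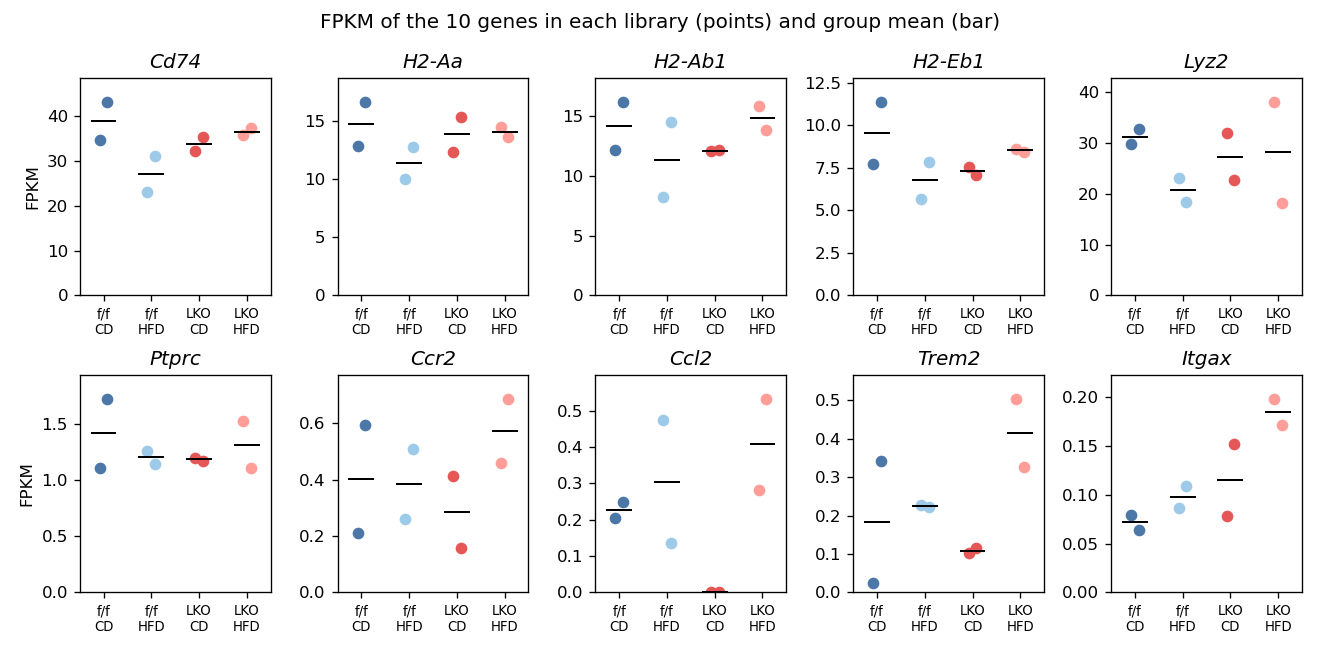
FPKM (y axis, from 0, a separate scale in each panel) of the 10 genes by genotype label and diet. Points are the 2 libraries of a group, each a pool of 2 livers, and bars are group means. Cd74 in f/f HFD lies at 23.1 and 31.2, under the other 6 libraries, and Ccl2 is listed at 0 in both LKO CD libraries.

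Rora, the targeted gene, did not separate the genotype labels on both diets. Its FPKM was 8.85 and 8.59 in the f/f CD libraries, 7.96 and 8.18 in LKO CD, 7.56 and 7.86 in f/f HFD and 7.30 and 8.02 in LKO HFD. The values of the LKO-labelled libraries were below those of the f/f-labelled on CD and overlapped with them on HFD. FPKM covers the whole gene, only 2 exons are removed and other liver cells keep them, so this value does not check the labels, and the genotype is given here as a label. The part of these limits in the small difference was not tested. The authors report that RORα mRNA and protein were strongly reduced in LKO liver. Between 10587 and 10706 genes exceeded 1 FPKM in a library. Albumin, the most abundant transcript of hepatocytes, was listed at 0 in 4 of 8 libraries and between 29902 and 30888 FPKM in the others, so an exact 0 in this table can be a failed estimate. The libraries at 0 were both of LKO HFD, the first of LKO CD and the second of f/f HFD, so they were uneven between groups.

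The question put to the table was whether the diet or the genotype label changed these genes. The change was tested with limma on log2(FPKM + 1) after quantile normalization, in 1 model of all 8 libraries, over the 11634 genes with more than 1 FPKM in at least 1 library, and p-values were adjusted over all of them by the Benjamini-Hochberg method. All log2 differences below are on this scale, which understates changes of low genes. Of the 10 genes 6 passed the filter: Cd74, H2-Aa, H2-Ab1, H2-Eb1, Lyz2 and Ptprc. None of the 6 reached an adjusted p under 0.05 in any of the 7 comparisons. Over all tested genes that threshold was passed by 1.33% on HFD against CD under the f/f label, by 3.02% under the LKO label and by 9.89% in the mean over both labels. It was passed by 0.0172% for LKO against f/f on CD, by 0.043% on HFD, by 0.103% in the mean over diets and by 0.0344% for the interaction of label and diet. In bulk liver, fewer cells of a type and less RNA per cell cannot be told apart.

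Cd74, the invariant chain (chr18:60803848-60812652, plus strand), showed the clearest pattern. Its FPKM was 34.8 and 43.3 in the f/f CD libraries and 23.1 and 31.2 in f/f HFD. In the LKO-labelled libraries it was 32.3 and 35.5 on CD and 35.7 and 37.5 on HFD. Both f/f HFD libraries were thus lower than both f/f CD libraries, whereas the LKO HFD libraries were slightly higher than the LKO CD libraries. The log2 difference of HFD against CD was -0.50 ± 0.16 (SE) under the f/f label, with an unadjusted p of 0.0177 and an adjusted p of 0.170 (limma). Under the LKO label it was 0.13 ± 0.16, with an adjusted p of 0.680. Neither diet change passed the adjusted threshold. The difference between these diet changes was 0.63 ± 0.23, with an unadjusted p of 0.0275 and an adjusted p of 0.572. On HFD Cd74 was 0.46 ± 0.16 higher in the LKO-labelled libraries, with an unadjusted p of 0.0253 and an adjusted p of 0.432. On CD it was -0.18 ± 0.16, with an adjusted p of 0.680. These values depended on single pools of the f/f HFD group: without its first library the f/f diet difference was -0.28, the label difference on HFD 0.24 and the interaction 0.42, and without its second they were -0.71, 0.67 and 0.84.

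H2-Eb1, the β chain of I-E, had values of 7.74 and 11.4 FPKM in f/f CD and 5.67 and 7.87 in f/f HFD. In the LKO-labelled libraries it had 7.52 and 7.05 FPKM on CD and 8.59 and 8.45 on HFD. The f/f libraries overlapped between diets, and the LKO HFD libraries were above the LKO CD libraries. The diet difference was -0.40 ± 0.19 under the f/f label (adjusted p 0.302, limma) and 0.24 ± 0.19 under the LKO label (adjusted p 0.514). The interaction was 0.64 ± 0.27, the largest of the 6 genes, with an unadjusted p of 0.0477 and an adjusted p of 0.594. It was 0.40 without the second f/f CD library, and it ran up to 0.88 when another library was left out.

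H2-Aa, the α chain of I-A, was at 12.9 and 16.7 FPKM in f/f CD and at 10.03 and 12.8 in f/f HFD. It was at 12.4 and 15.4 FPKM in LKO CD and at 14.5 and 13.7 in LKO HFD. The f/f groups were narrowly separated and the LKO groups overlapped. Its diet difference was -0.31 ± 0.17 under the f/f label (adjusted p 0.365, limma) and 0.05 ± 0.17 under the LKO label (adjusted p 0.898), and its interaction was 0.37 ± 0.24 (adjusted p 0.701).

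H2-Ab1, the β chain of I-A, was at 12.1 and 16.2 FPKM in f/f CD and at 8.21 and 14.5 in f/f HFD. It was at 12.1 in both LKO CD libraries and at 15.8 and 13.9 in LKO HFD. The pools of f/f HFD differed from each other more than the means of any 2 groups did. The diet difference was -0.30 ± 0.25 under the f/f label (adjusted p 0.554, limma) and 0.31 ± 0.25 under the LKO label (adjusted p 0.516), with an interaction of 0.61 ± 0.35 (adjusted p 0.674). Without the first f/f HFD library the f/f diet difference turned to 0.084 and the interaction was 0.22, against 0.99 without the second. Between labels on HFD, the difference was 0.43 ± 0.25 for H2-Ab1 (adjusted p 0.638), 0.31 ± 0.17 for H2-Aa (adjusted p 0.625) and 0.33 ± 0.19 for H2-Eb1 (adjusted p 0.635), each higher under the LKO label without passing the test.

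Lyz2, the lysozyme gene of myeloid cells (chr10:117277331-117282321, minus strand), varied most between pools. Its FPKM was 29.7 and 32.7 in f/f CD, 23.2 and 18.3 in f/f HFD, 31.9 and 22.7 in LKO CD and 38.1 and 18.1 in LKO HFD. The LKO HFD libraries were the highest and the lowest of all 8. The diet difference was -0.55 ± 0.34 under the f/f label (adjusted p 0.422, limma) and 0.00 ± 0.34 under the LKO label (adjusted p 1.00). The interaction was 0.55 ± 0.48 (adjusted p 0.756), and it was 0.014 without the first and 1.08 without the second LKO HFD library. On HFD the difference between labels was 0.37 ± 0.34, and it turned to -0.17 without the first LKO HFD library. Lyz1, the near-identical neighbour that could share reads with Lyz2, was listed at no more than 0.124 FPKM.

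Ptprc, the CD45 gene (chr1:138062861-138175708, minus strand), was at 1.11 and 1.73 FPKM in f/f CD, 1.26 and 1.14 in f/f HFD, 1.195 and 1.17 in LKO CD and 1.53 and 1.11 in LKO HFD. The groups overlapped in all 4 direct comparisons. Its diet difference was -0.13 ± 0.16 under the f/f label (adjusted p 0.716, limma) and 0.09 ± 0.16 under the LKO label (adjusted p 0.798), with an interaction of 0.22 ± 0.23 (adjusted p 0.797). The 95% interval of the diet difference ran from -0.51 to 0.25 under the f/f label and from -0.29 to 0.47 under the LKO label.

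**Figure D2:**
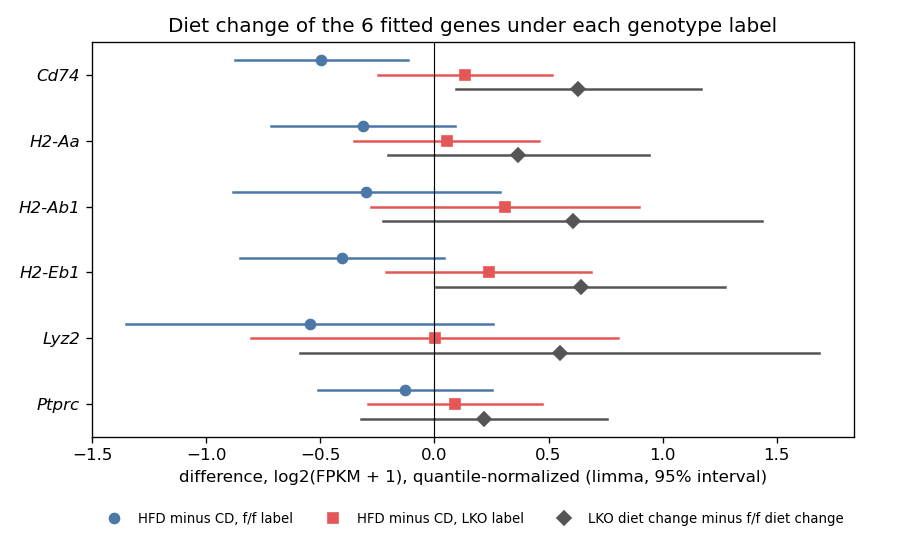
Log2 difference of HFD against CD (x axis, log2(FPKM + 1), quantile-normalized) of the 6 fitted genes under the f/f label (circles) and under the LKO label (squares), and the difference between these diet changes (diamonds), with 95% intervals from limma over 8 libraries. All 6 circles lie below 0 and all diamonds above 0, from 0.22 for Ptprc to 0.64 for H2-Eb1, and most intervals cross 0. The square of Lyz2 lies at 0.00.

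All 6 genes had a negative diet difference under the f/f label, with a median of -0.36 against 0.01 over all genes, and a positive one under the LKO label, with a median of 0.11 against 0.01, though that of Lyz2 was near 0 and turned negative without normalization and with median centring. Their unadjusted p was under 0.05 for 1 of 6 genes under the f/f label, where 19.2% of all genes passed, and for 0 of 6 under the LKO label, where 21.3% did. It was under 0.05 for 1 of 6 for LKO against f/f on HFD, against 9.58% of all genes, and for 0 of 6 on CD, against 12.3%. For the interaction it was under 0.05 for 2 of 6, Cd74 and H2-Eb1, against 8.35% of all genes. In the mean over labels and in the mean over diets 0 of 6 passed, against 27.9% and 13.5% of all genes.

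FPKM values of the 2 groups did not overlap for 3 of 6 genes on HFD against CD under the f/f label (Cd74, H2-Aa and Lyz2, all lower on HFD), and this held for 49.9% of all genes tested. Under the LKO label it held for 3 of 6 (Cd74, H2-Ab1 and H2-Eb1, all higher on HFD), against 53.2% of all genes. Between labels it held for 1 of 6 on CD (H2-Eb1, lower in LKO), against 43.3%, and for 3 of 6 on HFD (Cd74, H2-Aa and H2-Eb1, higher in LKO), against 42.1%. Cd74 alone of the 6 was lower on HFD without overlap under the f/f label and higher without overlap under the LKO label, as were 2.54% of all genes. Opposite diet changes of this kind in either order were found for 5.27% of all genes.

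The diet difference in the mean over labels was small for every fitted gene. It ran from -0.27 ± 0.24 for Lyz2 to 0.01 ± 0.17 for H2-Ab1, and it was -0.18 ± 0.11 for Cd74, -0.13 ± 0.12 for H2-Aa and -0.08 ± 0.13 for H2-Eb1. The label difference in the mean over diets ran from -0.05 ± 0.11 for Ptprc to 0.14 ± 0.11 for Cd74. The 95% interval for Cd74 ran from -0.45 to 0.09 for diet and from -0.13 to 0.41 for label.

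Ccl2, Ccr2, Trem2 and Itgax, the genes linked to recruited monocytes and to lipid-laden macrophages, were all low. They were fitted only when the filter was relaxed to more than 0 FPKM in at least 1 library, which tests 20816 genes.

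Ccl2, the monocyte chemokine (chr11:82035571-82037453, plus strand), was at 0.205 and 0.250 FPKM in f/f CD, 0.474 and 0.137 in f/f HFD and 0.282 and 0.534 in LKO HFD, and it was listed at 0 in both LKO CD libraries. No fold is given against that group. The f/f groups overlapped between diets, with a log2 difference of 0.08 ± 0.14 (limma, adjusted p 0.874). Ccr2, its receptor (chr9:124101950-124113557, plus strand), was at 0.212 and 0.594 FPKM in f/f CD, 0.261 and 0.510 in f/f HFD, 0.412 and 0.159 in LKO CD and 0.460 and 0.688 in LKO HFD. The LKO HFD libraries were above the LKO CD libraries, with a log2 difference of 0.29 ± 0.18 (adjusted p 0.529). Under the f/f label the difference was -0.01 ± 0.18 (adjusted p 1.00).

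Trem2, the receptor for lipids and apoptotic cells on macrophages, was at 0.0244 and 0.343 FPKM in f/f CD, 0.227 and 0.223 in f/f HFD, 0.104 and 0.115 in LKO CD and 0.505 and 0.326 in LKO HFD. The LKO HFD libraries were above both LKO CD and both f/f HFD libraries. The diet difference under the LKO label was 0.35 ± 0.12, with an unadjusted p of 0.0318 and an adjusted p of 0.275 (limma). Under the f/f label it was 0.07 ± 0.12 (adjusted p 0.871), and the interaction was 0.28 ± 0.18 (adjusted p 0.809). Itgax, the CD11c integrin chain (chr7:128129547-128150657, plus strand), was at 0.0795 and 0.0639 FPKM in f/f CD, 0.0867 and 0.109 in f/f HFD, 0.0780 and 0.153 in LKO CD and 0.199 and 0.171 in LKO HFD. The LKO HFD libraries held the 2 highest values of Itgax. On HFD Itgax was 0.11 ± 0.04 higher under the LKO label, with an unadjusted p of 0.0370 and an adjusted p of 0.602. Its diet difference was 0.09 ± 0.04 under the LKO label (adjusted p 0.396) and 0.03 ± 0.04 under the f/f label (adjusted p 0.800).

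For Ccr2, Trem2 and Itgax the LKO HFD libraries were above the LKO CD libraries without overlap. The same order for Ccl2 rests on the 2 values listed at 0, which can be failed estimates. Among the 9182 genes with a value above 0 and none above 1 FPKM, the groups did not overlap for 24.8% in this comparison and were higher on HFD for 11.6%. Under the f/f label this held for 1 of 4, Itgax, against 23% of such genes. Between labels it held for 1 of 4 on CD (Ccl2, through the values listed at 0 in LKO), against 21.3%, and for 2 of 4 on HFD (Trem2 and Itgax, higher in LKO), against 22.9%. None of the 4 had an adjusted p under 0.05 in the comparisons fitted.

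Other genes of the class II pathway were read from a list of 17 genes besides the members. Of these 9 were tested and none changed in any comparison at an adjusted p under 0.05. H2-DMa, a chain of the peptide exchange factor that was singled out after its values were seen, was at 1.88 and 1.92 FPKM in f/f CD, 1.22 and 1.16 in f/f HFD, 1.36 and 1.45 in LKO CD and 1.62 and 1.55 in LKO HFD. Its groups did not overlap in any of the 4 direct comparisons. In each single comparison this held for 42.1% to 53.2% of all genes, and the share for all 4 together was not counted. The interaction of H2-DMa was 0.52 ± 0.15, with an unadjusted p of 0.00999 and an adjusted p of 0.558 (limma). Ctss, the protease that cuts the invariant chain, was at 16.6 and 22.4 FPKM in f/f CD, 13.5 and 13.4 in f/f HFD, 15.4 and 16.6 in LKO CD and 17.2 and 15.9 in LKO HFD. Its interaction was 0.53 ± 0.20, with an adjusted p of 0.576. Rfxap, a subunit of the factor that binds the X box, went the other way, at -0.39 ± 0.14 (unadjusted p 0.0257, adjusted p 0.566). The median interaction over the 9 genes was 0.10, against 0.01 over all genes. In the mean over labels the diet differences largest in size were -0.22 for Ifi30, a reductase of the endosome, and 0.21 for Cd86, a costimulator. In the mean over diets the label differences largest in size were 0.15 for Cd86 and 0.15 for Ifi30. Ciita, the class II coactivator, stayed between 0.0793 and 0.162 FPKM.

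All 13 genes of the class I pathway were tested, since nearly every cell presents on class I. On HFD, in the mean over labels, Pdia3 and Calr, which fold class I molecules, fell by 0.46 and 0.45, with adjusted p of 0.0119 and 0.0200 in limma. B2m, the light chain of class I, was called higher, by 0.38 in the mean over labels (adjusted p 0.0195) and by 0.69 under the LKO label (adjusted p 0.0210). The call for B2m rested on quantile normalization at the top of the range, since its difference in the mean over labels was -0.03 without normalization and -0.01 with median centring. Under the LKO label its difference was as low as 0.06 under an alternative other than leaving out a library. In the mean over diets the label differences largest in size were 0.13 for Tap1 and -0.12 for Calr, and neither passed the test.

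Of 26 chemokines and receptors besides the members 11 were tested, and 15 did not exceed 1 FPKM in any library. Ccl9 fell by 0.42 on HFD in the mean over labels (limma, adjusted p 0.00936). Cxcl1, a chemokine for neutrophils, was at 6.68 and 6.13 FPKM in f/f CD and 14.8 and 12.2 in LKO CD, and at 7.22 and 5.27 in f/f HFD and 5.17 and 7.54 in LKO HFD. It fell by 0.96 on HFD under the LKO label (adjusted p 0.0491), and this call was lost in 4 of 8 other settings and whenever any 1 of the 8 libraries was left out. In the mean over labels Cxcl1 was at -0.49 and Cxcl9 at 0.48, and in the mean over diets Cxcl1 was at 0.50 and Cxcl10 at 0.26, none of which passed. Ccl7, another ligand of Ccr2, was listed at 0 in all libraries.

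Of 18 monocyte and recruited macrophage genes 17 were in the table and 9 were tested. Nr4a1, an immediate early gene that patrolling monocytes need, was at 0.836 and 0.925 FPKM in f/f CD and 2.89 and 3.20 in LKO CD, and between 0.238 and 0.405 in the 4 HFD libraries. It fell by 1.07 on HFD in the mean over labels (limma, adjusted p 0.00360) and by 1.60 under the LKO label (adjusted p 0.00946). Nr4a1 exceeded 1 FPKM only in the 2 LKO CD libraries, so it entered the fit only through the group where it was high. These calls are thus not independent of the filter. Many cell types make Nr4a1, hepatocytes among them. Il1b, which also entered the fit only through LKO CD, was at -0.40 for diet and 0.38 for label in the same means. Il1b passed neither test, and Nr4a1 was at 0.54 for label with an adjusted p of 0.108 (limma). In the mean over labels the median diet difference of the 9 genes was -0.02, against 0.01 over all genes.

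Of 12 genes of lipid-associated macrophages 10 were tested. Fabp5, a fatty acid binding protein that hepatocytes also make, fell by 2.42 on HFD in the mean over labels (limma, adjusted p 0.00936), and Cd63, a protein of late endosomes, rose by 0.59 (adjusted p 0.0277). The label differences largest in size in the mean over diets were 0.39 for Cd63 and -0.30 for Cd9, and neither passed. Gpnmb, a defining gene of such macrophages, stayed at or below 0.183 FPKM. The median diet difference of the list was -0.01 in the mean over labels, -0.10 under the f/f label and 0.13 under the LKO label. For LKO against f/f on HFD the median was 0.30. In that comparison 4 of 10 were higher and 1 lower at an unadjusted p under 0.05 (limma), against 9.58% of all genes. None of the 10 passed the adjusted threshold there.

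Markers of Kupffer cells and of leukocytes in general were read in the same comparisons. All 15 Kupffer cell and macrophage genes were tested, with Clec4f, which marks Kupffer cells, between 20.8 and 32.6 FPKM. Their median diet difference was -0.33 under the f/f label, where 13 of 15 were lower, and 0.23 under the LKO label, where 15 of 15 were higher, and the median interaction was 0.55, with 14 of 15 above 0. None of the 15 interactions had an adjusted p under 0.05, and 6 had an unadjusted p under 0.05, against 8.35% of all genes. Slc40a1, the iron exporter, was the only one to pass in the mean over labels, where it rose by 0.36 (limma, adjusted p 0.0309), and Marco was at 0.33. In the mean over diets Cd68 was at 0.32 and Clec4f at 0.15 for label. The summed FPKM of the list was 192 and 223 in f/f CD, 186 and 168 in f/f HFD, 188 and 178 in LKO CD and 235 and 187 in LKO HFD. The part of these cells in the class II values was not tested. The 12 pan-leukocyte genes had a median diet difference of -0.08 under the f/f label and 0.22 under the LKO label, and none passed the test in any comparison. In the mean over labels the diet differences largest in size among them were 0.33 for Arhgdib and 0.27 for Cd52. In the mean over diets the label differences largest in size were 0.40 for Cd52 and 0.30 for Spi1.

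Defining markers of T cells and neutrophils were low, and those of B and plasma cells were uneven. Ms4a1 of B cells did not exceed 0.257 FPKM and Cd3e of T cells did not exceed 0.536. Ighm, the immunoglobulin heavy chain, was between 1.36 and 9.23 FPKM, and Jchain of plasma cells was between 0.393 and 1.501. Ighm was at 2.03 and 4.41 FPKM in f/f CD, 2.19 and 8.60 in f/f HFD, 9.23 and 7.93 in LKO CD and 6.48 and 1.36 in LKO HFD, and its part in the class II values was not tested. Ly6g and Camp, which define neutrophils, were listed at 0 in all libraries, and such values can be failed estimates. Of the same list S100a9 was between 0.436 and 1.78 FPKM, S100a8 reached 1.03 and Csf3r was between 0.310 and 0.696. In all, 8 of the 10 neutrophil genes never exceeded 1 FPKM. Clec9a, a marker of cross-presenting dendritic cells, was between 0.885 and 1.76 FPKM. The 15 T and NK cell genes summed to between 2.89 and 5.55 FPKM in a library and the 10 neutrophil genes to between 1.38 and 3.60. In these lists, and in those of dendritic cells, cholangiocytes and adipocytes, no tested gene passed in any comparison, but few genes were tested. Tested were 1 of 15 T and NK cell genes, 2 of 10 neutrophil genes and 3 of 10 B and plasma cell genes. For dendritic cells 4 of 12 were tested, for cholangiocytes 1 of 6 and for adipocytes 1 of 6.

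**Figure D3:**
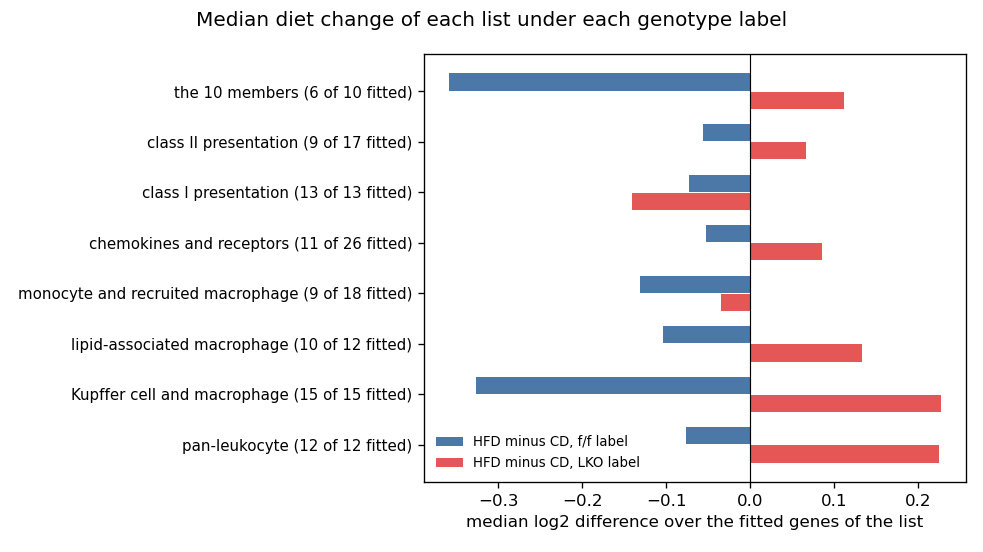
Median log2 difference of HFD against CD (x axis) over the fitted genes of each list under the f/f label (blue) and the LKO label (red). Of the lists plotted, the members and the Kupffer cell and macrophage genes lie furthest below 0 under the f/f label, at -0.36 and -0.33, and both lie above 0 under the LKO label, at 0.11 and 0.23.

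Globin transcripts, which come from blood, differed between libraries. The FPKM of 4 globin genes (Hba-a1, Hba-a2, Hbb-bs and Hbb-bt) summed to 44.9 and 380 in f/f CD, 40.0 and 197 in f/f HFD, 196 and 451 in LKO CD and 169 and 87.4 in LKO HFD. The sum of Cd74, H2-Aa, H2-Ab1 and H2-Eb1 was 67.5 and 87.6 FPKM, 47.0 and 66.4, 64.3 and 70.1, and 74.7 and 73.5 in the same order. In 4 of 4 groups the library with more globin was also the one with the higher class II sum, by only 1.18 FPKM in LKO HFD. Not every single gene had this order: Cd74 in LKO HFD and H2-Eb1 in LKO CD were lower in the library with more globin. The share of all genes with this order was not counted. The part of blood in these values was not tested.

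**Figure D4:**
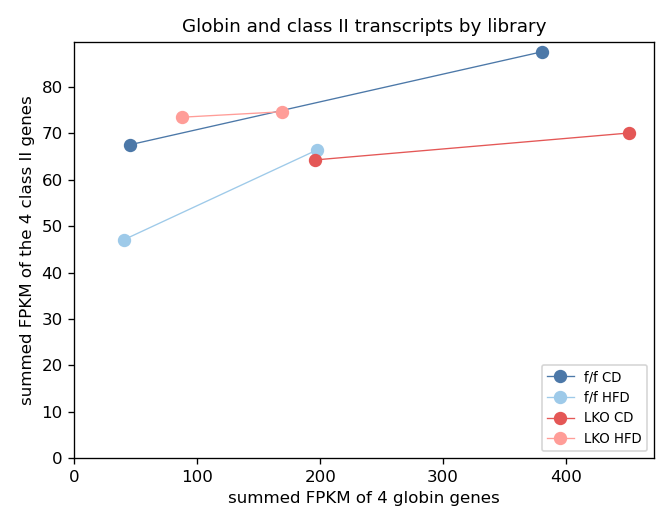
Summed FPKM of the 4 class II genes (Cd74, H2-Aa, H2-Ab1 and H2-Eb1, y axis) against the summed FPKM of 4 globin genes (x axis) in the 8 libraries, with a line joining the 2 libraries of each group. In each group the library with more globin lies higher, by 1.18 FPKM in LKO HFD and by 20.1 FPKM in f/f CD.

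The 4 class II genes followed each other across libraries. Pearson's r of their normalized log2 values over the 8 libraries was between 0.80 and 0.93 in 6 pairs. It was between 0.43 and 0.64 for the 4 pairs with Ptprc and between 0.27 and 0.34 for those with Lyz2, and it was 0.62 between Ptprc and Lyz2. These libraries share their pools and their normalization, so the values are descriptive.

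Over the same 8 libraries the genes most like Cd74 were Eif4e2, Lhpp and Chfr, with r between 0.95 and 0.97. Those most like H2-Aa were Zfp330, Donson and Fermt3 (r from 0.94 to 0.99), those most like H2-Ab1 were Prdx3, Nbdy and Gm17018 (0.91 to 0.93) and those most like H2-Eb1 were Eif4e2, Zmat3 and Coq7 (0.94 to 0.95). For Lyz2 they were Ube2u, Rmnd5a and Tnpo1 (0.90 to 0.91), and for Ptprc they were Gm12571, Snord17 and Det1 (0.96 to 0.97). None of these genes is another member.

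The remaining lists held 11 further genes that passed the test, none of them in a comparison of labels or in the interaction. The lists they came from had 9 stromal, 8 endothelial, 14 interferon, 5 erythroid and 9 hepatocyte genes tested. In the mean diet comparison 9.89% of all genes passed. Of the lists above, 1 of 11 chemokine, 1 of 9 monocyte and 1 of 15 Kupffer cell genes passed in it. Of 13 class I genes 1 was called higher and 2 lower in it. Of 10 lipid-associated macrophage genes 1 was called higher and 1 lower. On HFD in the mean over labels the stromal genes Ecm1, Dcn and Reln rose by 1.01, 0.78 and 0.62, and Lyve1 of endothelial cells rose by 0.76 (limma, adjusted p from 0.0213 to 0.0292). The interferon-responsive genes Gbp2 and Irf1 rose by 0.47 and 0.30 (adjusted p 0.0347 and 0.0326). Alas2, a gene of the erythroid list, fell by 0.56. Its FPKM did not follow the globin sums, at 41.0 and 39.3 in f/f CD and 51.4 in both LKO CD libraries. The hepatocyte gene Tat fell by 1.14, and by 1.53 under the f/f label alone. Apob, Hnf4a and Ttr of hepatocytes were called higher, by 0.26, 0.28 and 0.39. Without normalization the value of Apob was 0.067 and that of Ttr turned to -0.01, and the calls of Apob and Hnf4a were lost whenever any 1 library was left out. Of 25 calls over all lists, 20 were lost without at least 1 library. The 5 that held wherever they were fitted were the falls of Alas2, Ccl9, Fabp5, Nr4a1 and Tat on HFD in the mean over labels. Nr4a1 was not fitted with the filter at 1 FPKM in all 8 libraries.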

How the data were processed

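Liver RNA was sequenced from 8 libraries, each a pool of 2 mice, with 2 libraries in each of 4 groups taken from the labels. The authors trimmed reads with cutadapt 1.0, aligned them to GRCm38 with TopHat2 2.0.7 and deposited FPKM computed with Cufflinks (version not given in the sources used here), 1 column per library. Depth cannot be read from FPKM. Symbols were found for 36341 of 38283 gene identifiers. Values were log2-transformed with a pseudocount of 1, filtered at more than 1 FPKM in at least 1 library, quantile-normalized and fitted with a mean-variance trend (limma 3.58.1, R 4.3.3), in 1 model of 4 groups with 4 residual degrees of freedom, and checked on simulated data. Groups of 2 against 2 cannot pass an exact permutation test, whose smallest p is 0.333. Alternatives were no normalization, median centring, a pseudocount of 0.1, filters at 1 FPKM in all 8 libraries or above 0 in at least 1, a replicate block, no trend, only the 4 libraries compared, and leaving out each library. The members and lists were chosen with earlier results of these data known. From the lists, genes with an adjusted p under 0.05 were named, and from 7 immune lists also the 2 tested genes with the largest mean diet and mean label difference. For other lists, only the genes that passed were named. H2-DMa, Ctss, Rfxap, Ciita, Ccl7, Gpnmb, Clec9a and the markers given with FPKM alone were chosen after their values were seen. The 3 genes most like each fitted member were named by Pearson's r.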

Additional observations from a re-analysis of the deposited data

Results flagged for a closer look

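Cd74 and H2-DMa moved in opposite directions with diet under the genotype labels: both libraries fell below those on CD under the f/f label, and both lay above them under the LKO label. The diet change under the LKO label minus that under the f/f label was 0.63 for Cd74 (limma, unadjusted p 0.0275, adjusted p 0.572) and 0.52 for H2-DMa (unadjusted p 0.00999, adjusted p 0.558) on the log2 scale. The difference did not pass the adjusted threshold for either gene, and the same pattern was seen for 2.54% of all genes tested.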

How the results depend on the processing

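In all 7 comparisons 0 of 6 fitted genes passed an adjusted p under 0.05 under every alternative, also when 10 were fitted, and the number at an unadjusted p under 0.05 for the interaction ranged from 0 to 3 when a library was left out. Of 42 log2 differences of the fitted genes 24 kept their sign and 18 turned under at least 1 alternative; the cause was not tested. Without normalization and with median centring, the mean diet difference of H2-Ab1 was -0.030 and -0.0026, the mean label difference of H2-Eb1 was -0.011 and -0.0039, and the LKO diet difference of Lyz2 was -0.028 and -0.00031, against -0.00043 with a pseudocount of 0.1. The mean diet difference of Ptprc was 0.0051 with median centring. The mean diet difference of B2m was -0.033 and -0.0060, and that of Ttr was -0.011 without normalization. Leaving out 1 library at a time, the f/f diet difference ran from -0.68 to 0.084 for H2-Ab1 and from -0.31 to 0.051 for Ptprc. The LKO diet difference ran from -0.10 to 0.21 for H2-Aa, from -0.53 to 0.54 for Lyz2 and from -0.032 to 0.21 for Ptprc. The mean diet difference ran from -0.19 to 0.20 for H2-Ab1, from -0.21 to 0.038 for H2-Eb1, from -0.11 to 0.070 for Ptprc and from -0.26 to 0.93 for Marco. The label difference on CD ran from -0.24 to 0.12 for H2-Aa, from -0.37 to 0.0100 for H2-Ab1, from -0.42 to 0.057 for Lyz2 and from -0.34 to 0.017 for Ptprc. On HFD it ran from -0.17 to 0.90 for Lyz2 and from -0.067 to 0.18 for Ptprc. The mean label difference ran from -0.070 to 0.31 for H2-Ab1, from -0.11 to 0.13 for H2-Eb1, from -0.18 to 0.36 for Lyz2 and from -0.14 to 0.036 for Ptprc. The interaction kept its sign and ran from 0.42 to 0.84 for Cd74, from 0.19 to 0.54 for H2-Aa, from 0.22 to 0.99 for H2-Ab1, from 0.40 to 0.88 for H2-Eb1, from 0.014 to 1.08 for Lyz2 and from 0.037 to 0.40 for Ptprc. Where this left a group with 1 library, that library was assumed to vary like the other groups. With the replicate block 0 of 6 genes passed in any comparison and the Cd74 interaction stayed at 0.63 (adjusted p 0.610); deviations of libraries with the same number correlated between -0.0037 and 0.149 across groups, and the numbers mark different mice. Of 25 list calls, 17 were lost under at least 1 alternative other than leaving out a library and 20 without at least 1 library. The 5 kept under every alternative in which they were fitted were the diet calls of Alas2, Ccl9, Fabp5, Nr4a1 and Tat in the mean over labels. Nr4a1 was not fitted with the filter at 1 FPKM in all 8 libraries. Over all genes, the calls on HFD against CD under the f/f label numbered 155, against 28 with only 4 libraries, 34 with the replicate block, 42 without trend, 46 with the relaxed filter and 323 with the stricter one. FPKM without counts and 2 pools a group limit what could be detected.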
